A study of Mus musculus with 20 samples.

Results

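Interferon-stimulated genes are the transcripts that cells switch on when interferons bind their receptors. A set of 36 such genes, listed by name, was followed in white adipose tissue from the inguinal subcutaneous depot (iWAT), taken from female mice, and all 36 were found among the 36611 genes of the deposited RNA-seq tables. The study compared mice lacking Tmem120a, a nuclear envelope transmembrane protein, in adipocytes with control littermates fed a diet low in fat (LFD, with 10.5% fat) or high in fat (HFD, with 58% fat). The floxed line was C57BL/6 N Tac and the Cre line C57BL/6 J, and the labels give C57BL/6 for all; the share of each substrain per group is not given in the sources used here. The mice were 6 months old and 15 weeks on the diet, and each of the 4 groups held 5 libraries: control LFD (replicates 1 to 5), knockout LFD (6 to 10), control HFD (11 to 15) and knockout HFD (17 to 21). All mice carried floxed Tmem120a alleles, with loxP sites around exons 2 and 3. Only the knockouts, Ad-Tmem120a-/-, also carried Adiponectin-Cre, which acts in mature adipocytes, so the other cells of the tissue kept the gene and no control carried Cre alone. Libraries were made from ribosome-depleted total RNA and held between 54605101 and 92387737 estimated counts.

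Type I interferons signal through IFNAR1 and IFNAR2, and type II interferon through IFNGR1 and IFNGR2, to the kinases JAK1, JAK2 and TYK2. These pass the signal on to transcription factors, among them STAT2 and IRF9, and the induced genes carry the interferon-stimulated response element (ISRE) or, for type II interferon, the gamma-activated site (GAS). The products sense viral RNA, cut or block it, tag proteins with ISG15, or attack vacuoles that shelter microbes, and fat tissue is known to hold macrophages and lymphocytes that respond to interferon as well as adipocytes that do.

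The tissue label held: adipocyte markers were abundant in every library, with Adipoq between 638 and 1502 TPM, the share of transcripts a gene takes after correction for its length, and Fabp4 at 10985 TPM or more. Tmem120a lay between 57.9 and 132 TPM in control LFD, 21.5 and 74.0 in knockout LFD, 83.3 and 196 in control HFD, and 29.5 and 89.7 in knockout HFD. The genotypes thus overlapped by library, and these gene sums do not separate the deleted exons from the rest. With edgeR, Tmem120a was lower in knockouts by a log2 fold change of -1.64 ± 0.24 (SE, n = 10 against 10, adjusted p = 0.0045). Within a diet edgeR gave -1.67 ± 0.29 on HFD and -1.61 ± 0.34 on LFD, with adjusted edgeR p of 0.173 and 0.929. DESeq2 gave adjusted p of 3.2e-06 on HFD and 0.0025 on LFD. Pearson correlations between libraries of one group lay between 0.874 and 0.967 on log2(TPM + 1), with the lowest mean correlation to its own group in knockout LFD 9. Transcripts of the mitochondrial genome took 17.3 to 29.7% of TPM on LFD and 11.3 to 20.1% on HFD. Since TPM is a share of all transcripts, TPM of nuclear genes tended to be higher on HFD (median log2 difference of all genes 0.10 for diet over both genotypes) than the count-based fold changes (median -0.03), which are scaled between libraries. Fold changes below are count-based unless named otherwise, and a gene was called when its adjusted p was under 0.1.

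Every member was expressed, from 0.79 TPM for Oas3 to 92.5 TPM for Iigp1 as the mean of 20 libraries, and the lowest estimated count of any member in any library was 19. Iigp1, the highest, encodes an immunity-related GTPase that attacks pathogen vacuoles. In replicate order it stood at 69.9, 102, 92.7, 75.5 and 67.2 TPM in control LFD and at 110.4, 69.8, 127, 86.6 and 77.9 TPM in knockout LFD. On HFD it stood at 94.7, 90.0, 114, 122 and 68.6 TPM in controls and at 68.8, 123, 60.02, 152 and 79.6 TPM in knockouts. All 4 groups overlapped, and the knockout HFD libraries spanned both the lowest and the highest of the 20 values. Gbp2, a guanylate-binding protein, averaged 68.7 TPM and Ifit3, which binds foreign RNA complexes with its relatives, 41.5 TPM. Parp9, an ADP-ribosyltransferase, averaged 36.2 TPM. It stood at 34.9, 33.5, 29.8, 29.2 and 32.8 TPM in control LFD and 31.7, 31.7, 44.6, 25.1 and 35.8 TPM in knockout LFD. It stood at 45.5, 42.8, 35.3, 40.4 and 32.3 TPM in control HFD and 37.7, 33.5, 40.3, 42.1 and 45.3 TPM in knockout HFD. Its groups overlapped, with the highest value in control HFD 11. Ddx58, which encodes the RNA sensor RIG-I, averaged 32.8 TPM. It stood at 26.7, 36.4, 29.4, 28.8 and 26.9 TPM in control LFD and 38.0, 35.9, 42.9, 30.7 and 27.4 TPM in knockout LFD. It stood at 32.8, 28.8, 35.3, 32.2 and 32.7 TPM in control HFD and 27.2, 36.1, 30.6, 44.2 and 33.05 TPM in knockout HFD. Ddx58 was among the steadiest members, its highest library being 1.66 times its lowest. Over the 36 members that ratio ran from 1.62 for Parp14 to 14.3 for Ifi35, with a median of 3.56. Of neighbours in the order by level, Gbp2 and Ifit3 overlapped in single libraries, as did Parp9 and Ddx58.

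The first question was whether loss of Tmem120a in adipocytes went with a different interferon signature. No member was called between knockout and control mice on HFD, on LFD, or over both diets with diet as a covariate, by edgeR, DESeq2 or limma. The share of all tested genes called by edgeR was 0.00657% on HFD, 0.00636% on LFD and 0.0385% over both diets, so few genes of any kind passed with edgeR. Within either diet Tmem120a itself was not called by edgeR, and DESeq2 called it on both. The shares called by DESeq2 and limma are not given here. The study, with DESeq2 at an adjusted p of 0.1, reported a larger set of altered genes on HFD than edgeR called here. At an unadjusted p under 0.05 edgeR found 0 members on HFD, 0 on LFD and 1 over both diets, Ifi44. The median log2 fold change of the members was 0.03 on HFD, against 0.01 for all genes, and -0.04 on LFD, against -0.02 for all genes. The difference of the genotype effect between diets was called for 0 members (0 at an unadjusted p under 0.05), where 0.0% of all genes were called, with a member median of 0.06. Over both diets the 95% interval of the fold change lay within 2-fold in either direction for 32 of 36 members. The exceptions were Ifi44, Oasl1, Isg15 and Mx2. Skeletal muscle markers (11 genes) summed to 7.0 to 49.9 TPM in control HFD and 40.7 to 1412 TPM in knockout HFD. They summed to 7.3 to 3223 TPM in control LFD and 12.4 to 958.7 TPM in knockout LFD. On HFD 0 of the 11 were called and 11 had an unadjusted edgeR p under 0.05, all higher in knockouts. The study reads raised muscle genes in this tissue as de-repressed in the knockout. The source of these transcripts and their part in the members' values were not tested.

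**Figure D1:**
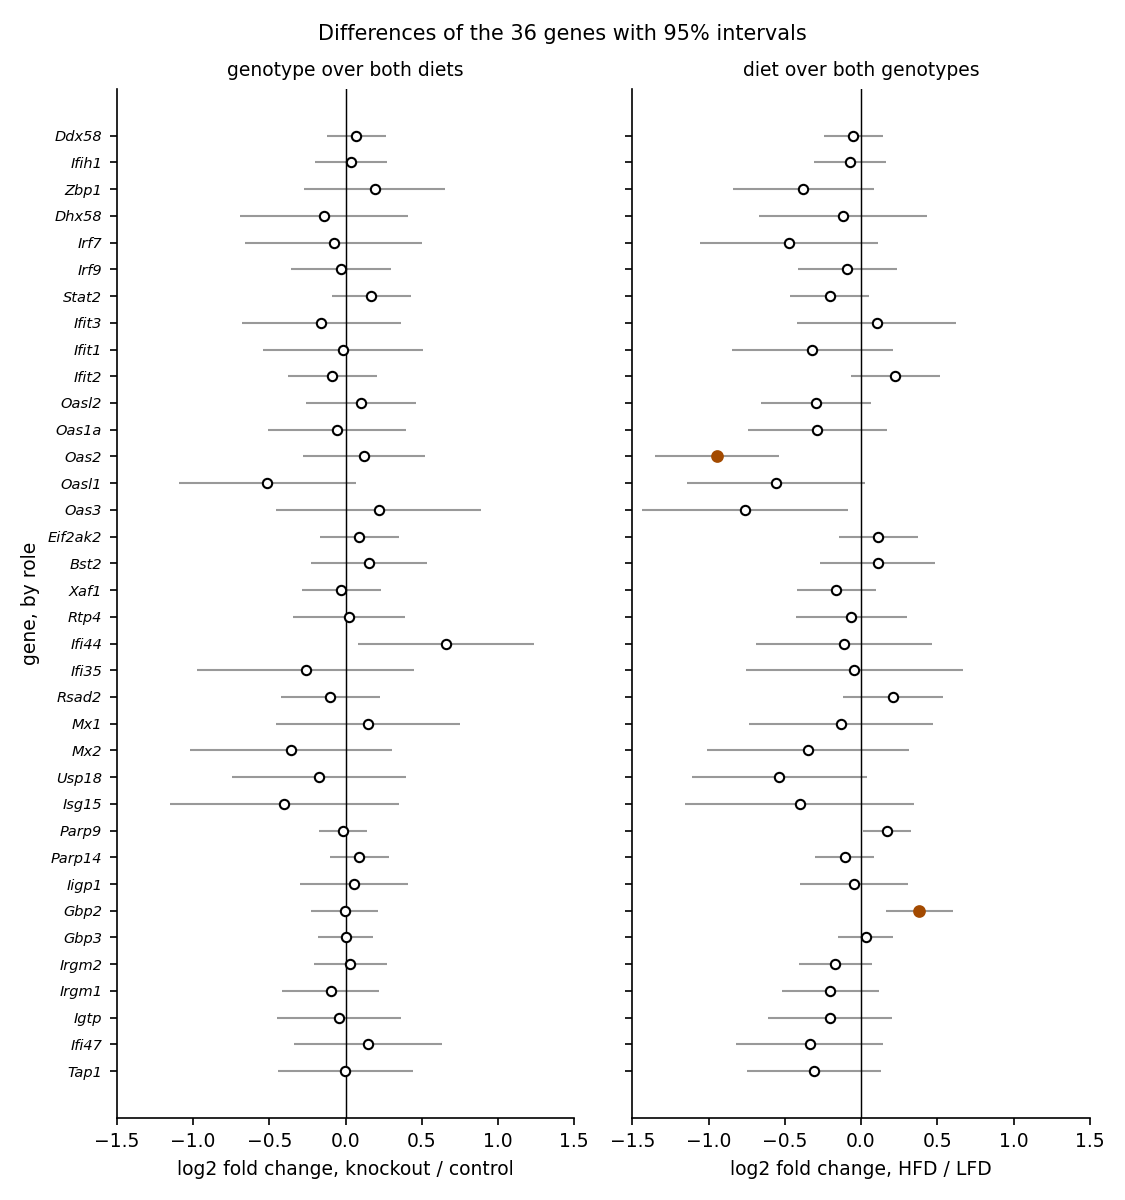
Log2 fold change of each of the 36 genes (points) with its 95% interval (lines), on the left knockout over control with both diets (n = 10 against 10) and on the right HFD over LFD with both genotypes (n = 10 against 10), genes grouped by role. Filled points passed an adjusted p of 0.1: none on the left, Oas2 and Gbp2 on the right.

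Ifi44, an antiviral gene that blood signatures of interferon often contain, had the largest genotype difference on both diets. It stood at 8.36, 9.67, 13.3, 10.5 and 6.03 TPM in control LFD and at 8.996, 7.32, 23.3, 26.5 and 15.2 TPM in knockout LFD. Its HFD values were 6.5, 8.82, 7.32, 12.3 and 14.1 TPM in controls and 8.02, 27.1, 12.9, 23.9 and 9.47 TPM in knockouts. On each diet some knockouts lay among the controls, and 5 of the 10 knockouts lay above all 10 controls, whose highest value was 14.1 TPM. The log2 fold change was 0.65 ± 0.37 (SE) on LFD, 0.68 ± 0.39 on HFD and 0.66 ± 0.28 over both diets, with an adjusted edgeR p of 0.61 for the last. Its 95% interval over both diets ran from 0.08 to 1.24. On HFD the difference was 0.44 without knockout HFD 18. Oasl1, an oligoadenylate synthetase-like protein, went the other way. It stood at 0.873, 2.05, 3.5, 2.63 and 1.39 TPM in control LFD and at 1.53, 1.21, 3.79, 0.63 and 1.73 TPM in knockout LFD. On HFD it stood at 1.75, 1.99, 1.43, 2.68 and 1.19 TPM in controls and at 1.12, 1.17, 0.91, 1.92 and 1.01 TPM in knockouts. On HFD 4 knockouts lay below all 5 controls, and knockout HFD 20 lay among them. Its log2 fold change was -0.58 ± 0.29 on HFD and -0.43 ± 0.48 on LFD, neither called. On LFD it was -0.83 without knockout LFD 8 and -0.16 without control LFD 3.

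Isg15 encodes the ubiquitin-like protein that is coupled to other proteins, and was low in this tissue. It stood at 0.574, 1.7, 3.06, 1.76 and 0.942 TPM in control LFD and at 1.29, 0.493, 3.8, 0.388 and 1.13 TPM in knockout LFD. Its HFD values were 2.08, 1.05, 1.13, 1.49 and 1.62 TPM in controls and 0.7, 0.672, 0.889, 1.41 and 1.44 TPM in knockouts. The groups overlapped on both diets, and the log2 fold change on HFD was -0.43 ± 0.41, and -0.27 without control HFD 11. Ifi35 had the widest range of any member. It stood at 7.5, 12.3, 13.2, 21.5 and 12.4 TPM in control LFD and at 14.4, 17.9, 17.2, 1.5 and 5.9 TPM in knockout LFD. On HFD it stood at 20.4, 13.1, 18.8, 7.97 and 8.56 TPM in controls and at 16.8, 4.1, 8.14, 13.7 and 20.7 TPM in knockouts. Knockout LFD 9 and knockout HFD 18 held its lowest values, and the log2 fold change on LFD was -0.41 ± 0.53, and -0.12 without knockout LFD 9.

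Mx1 and Mx2 encode dynamin-like GTPases that block viruses, and laboratory strains such as C57BL/6 are known to carry defective alleles of Mx1. Mx1 stood at 1.07, 5.38, 4.14, 5.33 and 3.01 TPM in control LFD and at 3.53, 3.39, 8.63, 3.63 and 1.99 TPM in knockout LFD. Its HFD values were 3.21, 2.9, 3.99, 4.03 and 2.59 TPM in controls and 2.75, 8.55, 3.5, 8.07 and 2.79 TPM in knockouts. In TPM, knockouts HFD 18 and HFD 20 were high and the other 3 lay among the controls. In estimated counts HFD 18, with 649 of 67215858, lay nearer to control HFD 14 (653 of 75888374) than to HFD 20 (1151 of 70139027). The log2 fold change on HFD was 0.38 ± 0.33, and -0.0047 without knockout HFD 20. Mx2 stood at 1.12, 0.948, 1.16, 1.18 and 0.667 TPM in control LFD and at 0.682, 0.615, 1.42, 0.977 and 0.518 TPM in knockout LFD. On HFD it stood at 1.05, 0.59, 1.01, 1.01 and 0.935 TPM in controls and at 0.471, 0.156, 0.909, 1.62 and 0.553 TPM in knockouts. The knockout libraries spread more widely than the controls on both diets, and the log2 fold change on LFD was -0.40 ± 0.36, and -0.65 without knockout LFD 8. Mx1 and Mx2 share 920 aligned bases at 94.8% identity, so reads may have been split between them.

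The members' overall level was compared between the libraries. The mean of log2(TPM + 1) over the 36 members was 3.67 ± 0.29 (SD, n = 5) in control LFD, 3.73 ± 0.35 in knockout LFD, 3.74 ± 0.06 in control HFD and 3.75 ± 0.27 in knockout HFD. Knockout LFD 8 at 4.34 and knockout HFD 20 at 4.20 held the highest values of the 20 libraries, and control LFD 1 at 3.26 the lowest. In both of these knockout libraries all 36 members lay above their own median over the 20 libraries. In control LFD 1 that was so for 4 members. The summed level of the members was 974 TPM in knockout LFD 8 and 996 TPM in knockout HFD 20, while the other 18 libraries lay between 530.3 and 745 TPM. The control HFD libraries stood closest together, between 652.6 and 745 TPM.

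**Figure D2:**
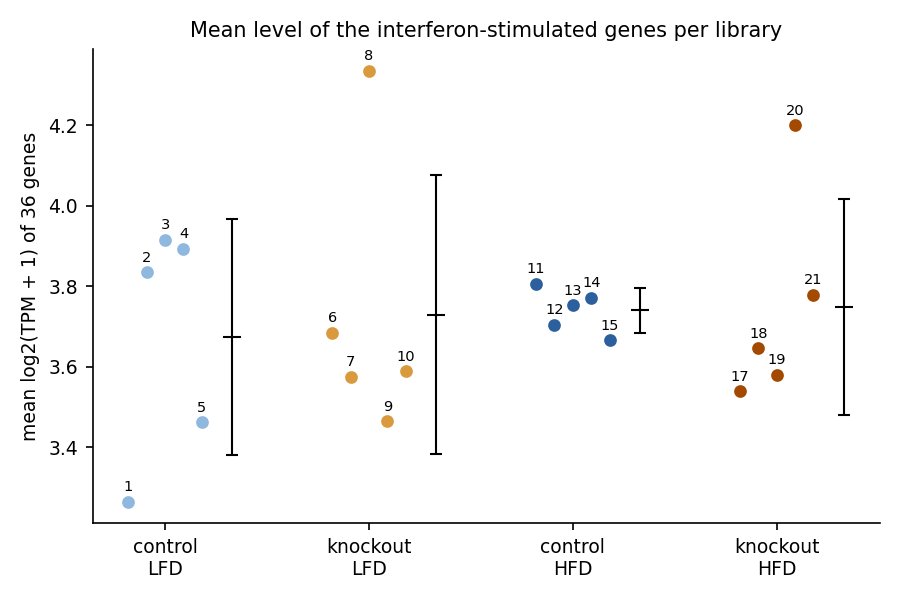
Mean of log2(TPM + 1) over the 36 genes in each of the 20 libraries (points, numbered by replicate), by group, with the group mean ± SD (n = 5) in black. Knockout LFD 8 (4.34) and knockout HFD 20 (4.20) stand above all other libraries, and control HFD libraries are the least spread.

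Knockout LFD 8 and knockout HFD 20 were picked out from these values, so what follows is a description with no test. Set against the other 4 libraries of its group, knockout LFD 8 was highest for 30 of 36 members (83.3%), while it was highest for 16.8% of all genes. Knockout HFD 20 was highest for 24 of 36 (66.7%), against 14.8% of all genes. The median log2 difference from the median of the other 4 was 0.68 for the members and 0.05 for all genes in knockout LFD 8. In knockout HFD 20 it was 0.50 for the members and -0.00 for all genes. By role, the ISG15 system (Isg15 and Usp18), the IFIT family and the OAS family stood furthest out in knockout LFD 8, with median ratios of 3.63, 2.23 and 2.27, and Tap1 (antigen processing), the ADP-ribosyltransferases and the sensors least, at 1.33, 1.34 and 1.39. In knockout HFD 20 the ISG15 system and IFIT family led again, at 2.24 and 2.19, followed by the OAS family at 1.80. Isg15 was 4.69 times, Oas3 3.73 times and Ifit3 2.90 times the median of the other libraries in knockout LFD 8. Mx2 was 3.16 times, Ifit1 3.14 times and Usp18 2.70 times that median in knockout HFD 20. At the other end, Ifih1, the RNA sensor MDA5, was 1.03 times the median in knockout LFD 8, and Gbp2 was 1.003 times in knockout HFD 20.

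**Figure D3:**
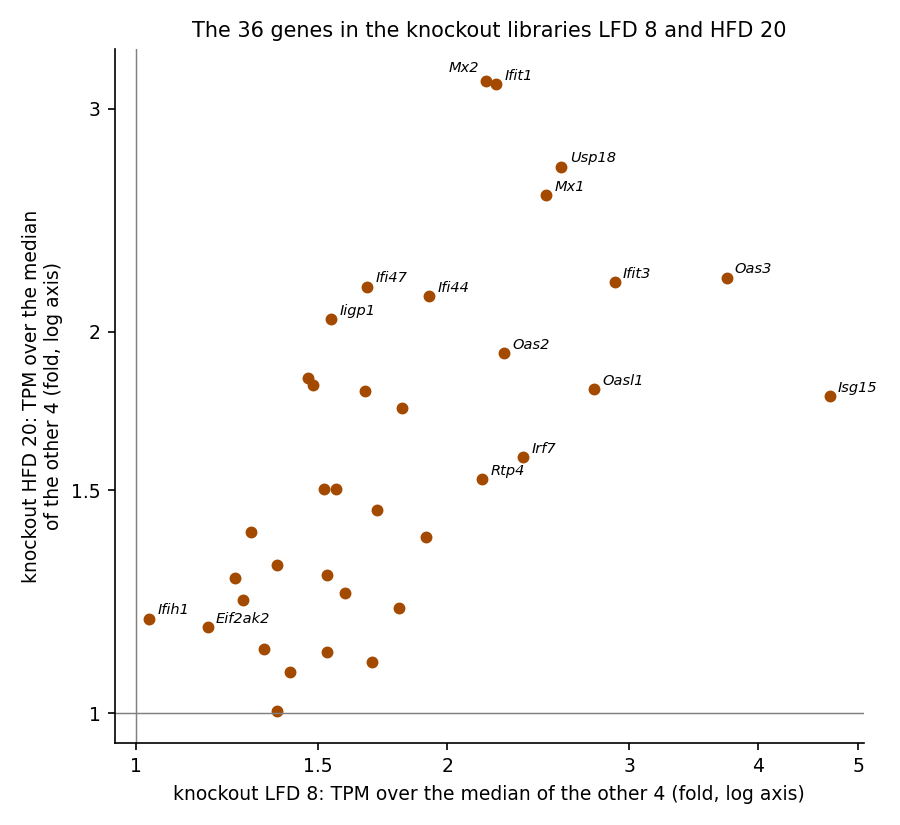
For each of the 36 genes, TPM in knockout LFD 8 (horizontal) and in knockout HFD 20 (vertical) over the median TPM of the other 4 libraries of the same group, both on log axes, where 1 means no difference. Every gene lies at or above 1 on both axes, with Isg15 at 4.69 horizontally and Mx2 at 3.16 vertically the farthest out. Both are low, with medians in those other 4 libraries of 0.81 TPM for Isg15 and 0.51 TPM for Mx2.

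Ifit3 and Ifit1 illustrate the pattern. Ifit3 stood at 22.5, 47.7, 56.0, 51.7 and 22.3 TPM in control LFD and at 28.9, 24.3, 73.8, 16.2 and 26.6 TPM in knockout LFD. Its HFD values were 52.7, 53.6, 36.5, 42.8 and 39.5 TPM in controls and 31.0, 36.04, 39.9, 83.1 and 45.4 TPM in knockouts. Within each knockout group 1 library stood far above the other 4, and the control LFD libraries split into 3 high and 2 low. The log2 fold change between genotypes on LFD was -0.37 ± 0.41, -0.82 without knockout LFD 8 and -0.18 without control LFD 3, none of them called. Ifit1 stood at 15.9, 23.9, 28.8, 24.2 and 13.3 TPM in control LFD and at 14.5, 11.9, 35.1, 17.1 and 22.5 TPM in knockout LFD. On HFD it stood at 17.6, 18, 13.96, 20.6 and 19.8 TPM in controls and at 10.7, 12.3, 18.5, 44.3 and 15.96 TPM in knockouts. The highest Ifit1 value again belonged to knockout HFD 20. Usp18, the protease that takes ISG15 off and damps interferon signalling, did the same on LFD. It stood at 2.77, 6.59, 7.03, 9.76 and 4.04 TPM in control LFD and at 5.11, 5.72, 12.3, 4.16 and 4.39 TPM in knockout LFD. Its HFD values were 5.86, 2.81, 6.09, 7.26 and 4.45 TPM in controls and 3.84, 2.34, 1.91, 8.35 and 5.36 TPM in knockouts. Knockout LFD 8 and control LFD 4 held its highest values.

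**Figure D4:**
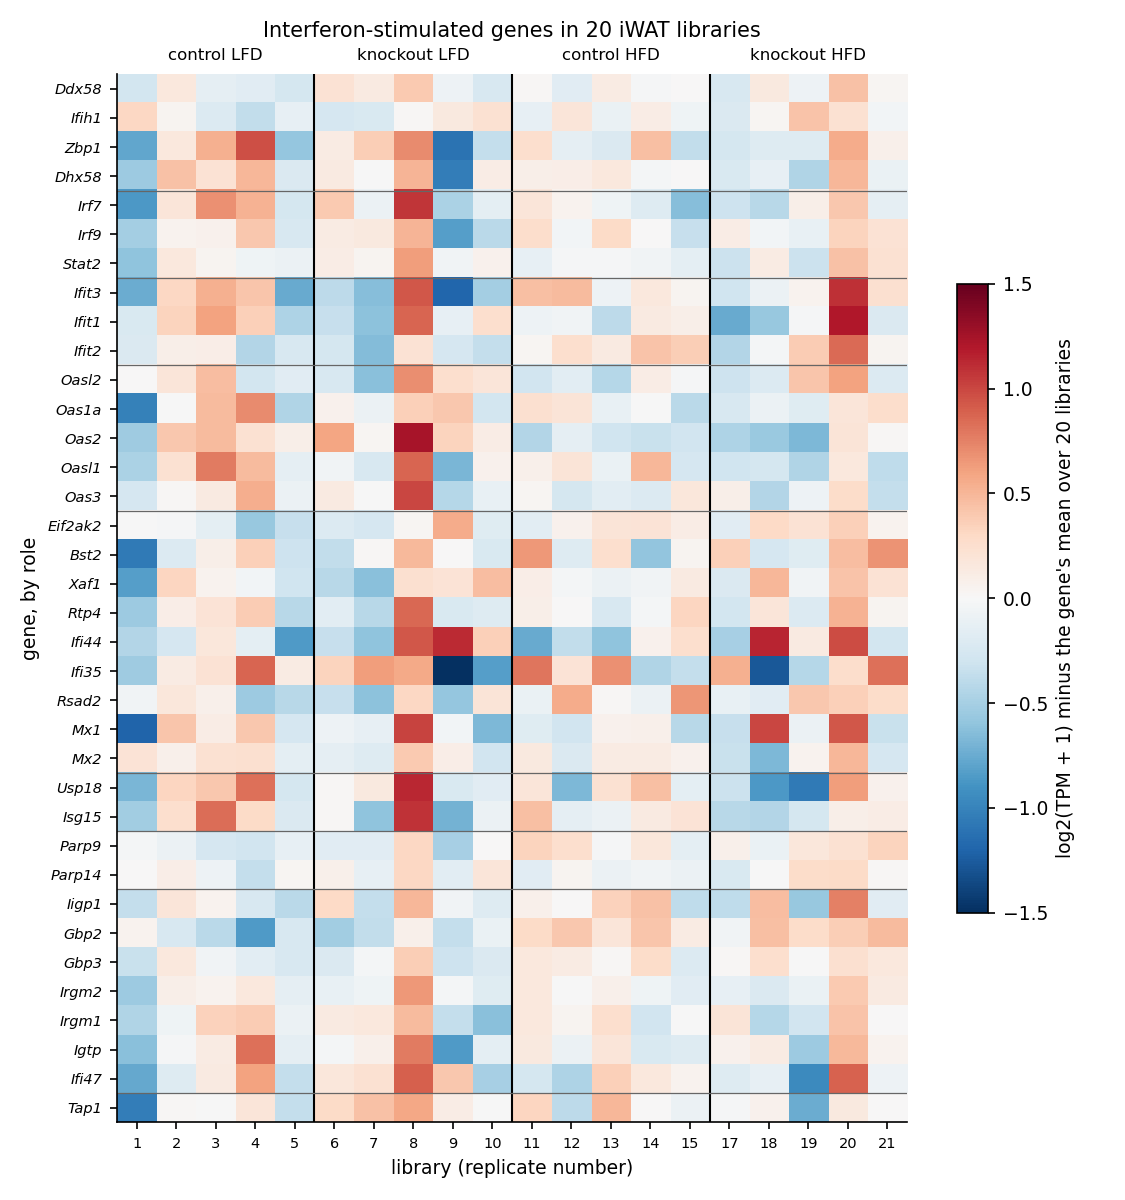
Log2(TPM + 1) of each gene minus that gene's mean over the 20 libraries (red above, blue below, colours capped at 1.5), with libraries in columns by group and genes in rows by role. In knockout LFD 8 and knockout HFD 20 all 36 genes exceed their own median over the libraries, and in control LFD 1, a mostly blue column, 4 do.

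Further interferon genes were read in the same libraries. Of 62 other interferon-stimulated genes that averaged 0.5 TPM or more, knockout LFD 8 was highest of its 5 for 39 (62.9%) and knockout HFD 20 for 40 (64.5%). Of 34 genes of the interferon pathway (receptors, kinases, factors and regulators) each was highest for 7 (20.6%). Markers of other cell types also varied. Natural killer markers (8 genes) summed to 42.0 TPM in knockout LFD 8, the highest of all libraries, within 24.5 to 42.0 TPM for knockout LFD, and lay between 10.7 and 36.04 TPM in control LFD, 21.2 and 41.5 in control HFD, and 20.2 and 30.9 in knockout HFD. Lymphocyte markers (18 genes) summed to 12.0 TPM in control LFD 1, the lowest of all libraries and below the 38.4 TPM of the next, with control LFD reaching 295, knockout LFD 160 to 327, control HFD 38.4 to 284, and knockout HFD 103 to 283 TPM. Macrophage markers (16 genes) summed to 682 TPM in knockout LFD 8, the highest of the LFD libraries, and to 739 TPM in knockout HFD 20, within 633 to 852 TPM for its group. They summed to 485 to 682 TPM in knockout LFD, 513 to 676 in control LFD and 666 to 824 in control HFD. The lymphocyte sum of knockout LFD 8 (160 TPM) was the lowest of its group, its neutrophil sum (6.03 TPM) the lowest of the 20 libraries, and its sum of plasmacytoid dendritic cell markers (44.6 TPM) second lowest of its group. In knockout HFD 20 the lymphocyte (277 TPM), natural killer (30.6 TPM), neutrophil (26.2 TPM) and plasmacytoid dendritic cell (98.5 TPM) sums were each second highest of its group. Of the natural killer, lymphocyte and macrophage lists, Prf1, Ccr7 and Trem2 were listed at 0 in at least 1 library. The part of these cells in the members' levels was not tested, and in bulk tissue fewer cells of a type and less RNA per cell cannot be told apart.

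Across the 20 libraries the members varied together to different degrees. The Pearson correlation of a member with the mean of the other 35 had a median of 0.68, and 26 members reached 0.5 or more. Irgm2 (0.91), Rtp4 (0.89), Ifit3 (0.87), Irf7 (0.82) and Stat2 (0.81) followed the others most closely, and Gbp2 (0.07), Eif2ak2 (0.01), the kinase PKR, and Ifih1 (-0.17) least. These correlations lean on 2 libraries: without knockout LFD 8 and knockout HFD 20, the median dropped to 0.49 and 17 members reached 0.5, Ifit3 at 0.82, Irgm2 at 0.81 and Isg15 at 0.80 among them. The points share library and depth, and the correlations are given as a description with n = 20 and n = 18. Of genes that are not members, the mean of the 36 was closely followed by Gm12250 (0.83), I830012O16Rik (0.80), which is known as Ifit3b, Tor3a (0.78), Phf11 (0.78), Cmpk2 (0.76), Mup13 (0.75), Slfn8 (0.75), H2-T24 (0.74) and B3galt6 (0.72). Of these, 5 stood in the lists of interferon genes. Without knockout LFD 8 and knockout HFD 20 the correlations of these genes were lower. They ran from 0.43 for Mup13, 0.50 for Slfn8 and 0.56 for Cmpk2 up to 0.75 for Tor3a. Mup13 averaged 0.51 TPM, close to the limit of 0.5 TPM. I830012O16Rik is 97.8% identical to Ifit3 over 1700 bases and may share its reads.

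The promoters of the members are shown for the motif that complexes of STAT2 and IRF9 bind. RefSeq promoter windows of 300 bases (GRCm38.p6, around the start site) were found for 26 of the 36 members. Not matched were Mx1, Mx2, Parp9, Parp14, Usp18, Rtp4, Oas2, Dhx58, Iigp1 and Zbp1. The ISRE core, searched as GAAANNGAAA on both strands, was found in 16 of the 26 (61.5%), and in 3.99% of the 27025 genes with a window. The GAS letters TTCNNNGAA, the same on both strands, were found in 7 of the 26 (26.9%), Ifit2, Oas1a, Bst2, Eif2ak2, Ifi35, Igtp and Irgm2, and in 9.55% of all genes. A match describes the letters and is not a measured binding site. In the windows of 60 bases below, all upstream of the start site, capitals mark each match to the ISRE core. Isg15, Oas3, Ifit3 and Ifit1 are shown as members with high TPM ratios in knockout LFD 8 or HFD 20. Irgm2 is shown as the one most tied to the rest, and Gbp2 as one that was not.
Isg15, chr4:156200850-156200909, minus strand: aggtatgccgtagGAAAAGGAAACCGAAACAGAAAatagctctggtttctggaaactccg
Oas3, chr5:120777700-120777759, minus strand: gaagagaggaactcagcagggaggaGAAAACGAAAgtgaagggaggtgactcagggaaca
Ifit3, chr19:34583382-34583441, plus strand: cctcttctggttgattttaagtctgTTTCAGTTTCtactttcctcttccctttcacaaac
Ifit1, chr19:34640779-34640838, plus strand: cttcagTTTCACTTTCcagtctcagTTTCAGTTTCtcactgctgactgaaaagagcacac
Irgm2, chr11:58214888-58214947, plus strand: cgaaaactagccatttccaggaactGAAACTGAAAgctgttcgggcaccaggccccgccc
Gbp2, chr3:142620579-142620638, plus strand: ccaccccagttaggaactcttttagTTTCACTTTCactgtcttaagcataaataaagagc
Isg15 carried 3 overlapping cores, the nearest starting 66 bases before the start site, and Ifit1 carried 2, the nearest starting 85 bases before it. Ifit3 carried 2, of which the nearest, 122 bases before the start site, is shown and the other, at 156, lies outside the printed bases. Single cores were found 75 bases before Oas3, 64 before Irgm2 and 59 before Gbp2. The Gbp2 window thus held the same core letters as those of other members, while its correlation with the mean of the other members was low (0.07).

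The second question was what HFD did to these genes in each genotype. Of the 36 members, 1 was called in controls (2.78%, against 9.32% of all genes), 1 in knockouts (2.78%, against 9.4%) and 2 over both genotypes with genotype as a covariate (5.56%, against 25.2%). Oas2 was called lower on HFD in all 3 comparisons and Gbp2 higher over both genotypes. At an unadjusted p under 0.05 edgeR found 4, 2 and 4 members. The members' median log2 fold change was -0.18 in controls, -0.10 in knockouts and -0.15 over both genotypes, where all genes had -0.04, 0.00 and -0.03. In controls it was -0.28 without control LFD 1 and -0.07 without control LFD 4. In knockouts it was -0.28 without knockout HFD 20 and 0.02 without knockout LFD 8, and over both genotypes -0.24 and -0.08 without the same libraries. On the TPM scale the medians were 0.04, 0.01 and 0.01, again below those of all genes (0.13, 0.08 and 0.10), so the sign of the members' median turned with the scale and its place below all genes did not. The control and the knockout comparison share no library, and 31 of 36 members had the same sign in both (86.1%, against 74.3% of all genes), 25 of them lower on HFD on the count scale. The members varied together, with a correlation above 0 across the libraries in 545 of 630 pairs. Their signs are thus not independent of each other, and the agreement was not tested.

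Oas2 encodes a synthetase whose 2'-5' oligoadenylates activate RNase L against viral RNA. It stood at 1.96, 4.67, 4.95, 4.04 and 3.58 TPM in control LFD and at 2.17, 2.91, 2.5, 2.4 and 2.51 TPM in control HFD. In knockouts it stood at 5.49, 3.38, 9.15, 4.43 and 3.64 TPM on LFD and at 2.12, 1.92, 1.68, 3.89 and 3.34 TPM on HFD. In controls the HFD libraries lay below 4 of the 5 LFD libraries, control LFD 1 being lower than all of them, and in knockouts HFD 20 and HFD 21 approached or passed the lowest LFD values. The log2 fold change was -0.79 ± 0.22 (SE, n = 5 against 5) in controls, with an adjusted edgeR p of 0.063, and -1.10 ± 0.30 in knockouts, with an adjusted edgeR p of 0.057. Over both genotypes it was -0.94 ± 0.19 (n = 10 against 10), a level 0.52 times that on LFD, with an adjusted edgeR p of 0.0016. That call held in all 6 other settings (adjusted p 3.3e-05 to 0.012) and when any 1 of the 20 libraries was left out (adjusted edgeR p up to 0.0041). The calls within a genotype were close to the threshold. In controls the call was lost with limma (adjusted p 0.186 and 0.196) and with all 20 libraries in 1 fit (adjusted edgeR p 0.111), over a range of 0.014 to 0.196 in 7 settings. It was also lost without control LFD 2, 3 or 5 or control HFD 11, 13 or 15, with adjusted edgeR p between 0.104 and 0.155. In knockouts it was lost with limma (adjusted p 0.118 and 0.124), over a range of 0.0076 to 0.124 in 7 settings. It was also lost without knockout LFD 6 or 8 or knockout HFD 17, 18 or 19, with adjusted edgeR p between 0.107 and 0.126. The difference of the diet effect between genotypes was -0.34 ± 0.39 and not called.

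Gbp2, one of the proteins that bind guanine nucleotides and coat vacuoles, stood at 68.9, 56.4, 50.3, 36.7 and 56.3 TPM in control LFD and at 81.3, 88.5, 75.7, 89.4 and 72.9 TPM in control HFD. In knockouts it stood at 46.0, 51.5, 70.5, 51.6 and 62.2 TPM on LFD and at 64.0, 91.6, 81.2, 86.7 and 93.0 TPM on HFD. In TPM, every control on HFD lay above every control on LFD, and in knockouts only HFD 17 fell among the LFD libraries. Relative to total counts the control groups overlapped. Control LFD 1 held 8037 estimated Gbp2 counts of 63648801, and control HFD 15 held 7877 of 64760384. Gbp2 was the only member whose TPM did not overlap by diet in controls, where 9.78% of all genes did not overlap in one direction or the other. In knockouts no member was free of overlap, against 7.95% of all genes. Between genotypes the share of all genes free of overlap was 0.69% on HFD and 1.4% on LFD, and no member was among them. The log2 fold change of Gbp2 with diet was 0.37 ± 0.16 in controls and 0.39 ± 0.16 in knockouts, neither called, and 0.38 ± 0.11 over both genotypes, 1.30-fold, with an adjusted edgeR p of 0.014. The call over both genotypes held in all 6 other settings (adjusted p 0.00048 to 0.024) and without any 1 library (adjusted edgeR p up to 0.035). Some endothelial markers (10 genes) and macrophage markers were also called for diet: 4 endothelial genes higher and 1 lower, and 4 macrophage genes higher and 1 lower. Of all genes, 25.2% were called for diet over both genotypes. The marker sums were 185 to 284 TPM on LFD and 256 to 429 TPM on HFD for endothelium, and 485 to 682 and 633 to 852 TPM for macrophages. On the TPM scale nuclear genes tended to be higher on HFD. The part of these cells in the Gbp2 difference was not tested. Gbp3, a paralog also on chromosome 3, differed by 0.03 ± 0.09 with diet.

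**Figure D5:**
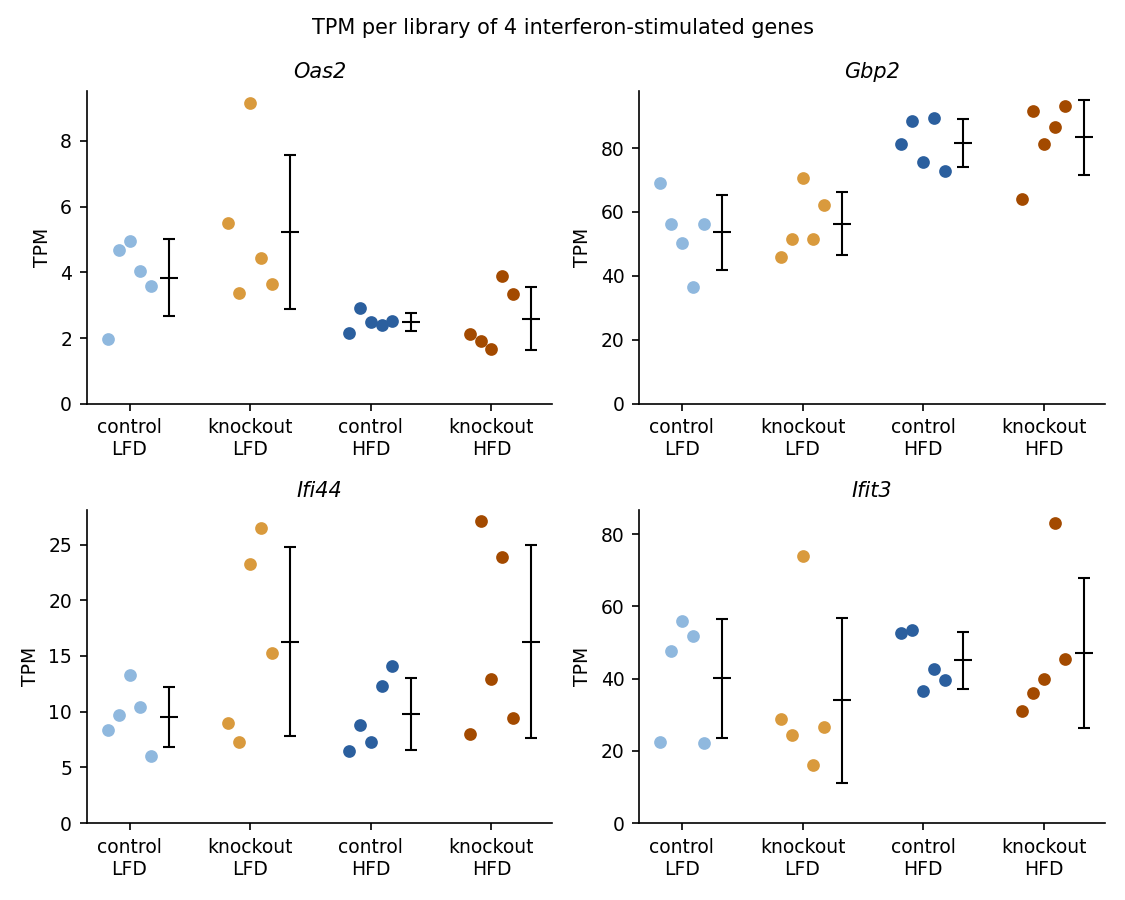
TPM of Oas2, Gbp2, Ifi44 and Ifit3 in each of the 20 libraries (points), by group, with the group mean ± SD (n = 5) in black and axes from 0. Oas2 is lower and Gbp2 higher on HFD in both genotypes, 5 knockouts exceed all controls for Ifi44, and 1 library of each knockout group leads for Ifit3.

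Of the 5 members of the OAS family, Oas2 was the only one called for diet over both genotypes, where 25.2% of all genes were called, and the family's median log2 fold change was -0.56 on the count scale. Oas3, which makes longer oligoadenylates, stood at 0.464, 0.762, 0.904, 1.54 and 0.635 TPM in control LFD and at 0.771, 0.452, 0.557, 0.509 and 0.956 TPM in control HFD. In knockouts it stood at 0.906, 0.726, 2.48, 0.295 and 0.603 TPM on LFD and at 0.845, 0.283, 0.644, 1.1 and 0.351 TPM on HFD. All groups overlapped. The log2 fold change was -0.87 ± 0.32 in controls, -0.65 ± 0.55 in knockouts and -0.76 ± 0.32 over both genotypes, with an adjusted edgeR p of 0.11 for the last. In knockouts it was -0.94 without knockout HFD 20 and -0.05 without knockout LFD 8. In controls it was called without control LFD 1 (edgeR adjusted p of 0.071) and with DESeq2 (adjusted p of 0.067), over a range of 0.067 to 0.658 in 6 settings. Oasl1, given above, had -0.56 ± 0.28, Oasl2 -0.29 ± 0.17 and Oas1a -0.29 ± 0.22 over both genotypes. Oas1a is 96.8% identical to Oas1g over 1894 bases, so their reads may have been split. Oas2 (chr5:121180342-121199862, mm9) and Oas3 (chr5:121203107-121227670) lie side by side, with Oas1a at chr5:121346265-121357536.

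Of the other members with the largest diet differences none was called. Irf7, the transcription factor that amplifies interferon production, stood at 7.21, 15.9, 23.0, 20.4 and 11.4 TPM in control LFD and at 16, 14.4, 13.3, 12.1 and 8.63 TPM in control HFD. In knockouts it stood at 18.7, 13.1, 30.3, 9.72 and 12.5 TPM on LFD and at 11, 10.2, 14.9, 18.8 and 12.6 TPM on HFD. The LFD libraries of both genotypes enclosed the HFD libraries, and the log2 fold change in controls was -0.63 ± 0.39, and -0.30 without control LFD 4. Zbp1, a sensor of Z-form nucleic acids that triggers cell death, stood at 8.09, 16.4, 21.6, 29.5 and 9.42 TPM in control LFD and at 17.6, 13.2, 12.4, 20.3 and 11.05 TPM in control HFD. In knockouts it stood at 15.99, 19.1, 24.5, 6.22 and 11.1 TPM on LFD and at 12.0, 12.6, 12.6, 21.9 and 15.4 TPM on HFD. Its LFD libraries again spread around the HFD libraries, with a log2 fold change in controls of -0.49 ± 0.34, and -0.27 without control LFD 4 or -0.75 without control HFD 14. Tap1, which carries peptides to class I molecules, stood at 11.6, 13.03, 14.5, 10.2 and 9.3 TPM in knockout LFD and at 9.21, 9.78, 5.19, 10.4 and 9.36 TPM in knockout HFD. In controls it stood at 4.02, 9.44, 9.34, 10.7 and 7.1 TPM on LFD and at 11.9, 6.87, 13.7, 9.38 and 8.74 TPM on HFD. The knockout diets overlapped between 9.3 and 10.4 TPM, and the log2 fold change in knockouts was -0.48 ± 0.29, and -0.29 without knockout HFD 18. In estimated counts Tap1 was lowest of its group in HFD 18 (722 of 67215858), and in TPM it was lowest in HFD 19 (1270 counts of 74270886). Usp18 had -0.66 ± 0.42 and Oasl1 -0.63 ± 0.39 in knockouts, which came to -0.32 and -0.26 without knockout LFD 8, and Usp18 to -1.05 without knockout HFD 20. Ifit1 had -0.49 ± 0.25 in controls, and -0.31 without control LFD 3.

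The remaining members, by role, were likewise not called in any of the 7 comparisons. Over both genotypes, the diet differences of Ifih1 and Dhx58, which encode the sensors MDA5 and LGP2, were -0.07 and -0.12, and those of Stat2 and Irf9, which bind DNA together, -0.21 and -0.09. Ifit2 had 0.23. Of the antiviral effectors, Rsad2 (viperin) had 0.21, Bst2 (tetherin) 0.11, Eif2ak2 0.11, Rtp4 -0.06, Xaf1 -0.16 and Ifi35 -0.04. Parp9 had 0.17 ± 0.08 and Parp14 -0.11 ± 0.09. Of the vacuole-directed GTPases, Ifi47 had -0.34, Irgm1 -0.20, Igtp -0.20, Irgm2 -0.17 and Iigp1 -0.04. On the TPM scale with limma, 5 members were called over both genotypes: Rsad2, Parp9, Ifit2 and Gbp2 higher and Oas2 lower. Of all genes, limma (pseudocount 1) called 4736 of 15574 there, 3552 of them higher. The sign of the diet difference over both genotypes was the same under all 5 scalings and tests for 21 of 36 members, and turned for the other 15, all of them uncalled.

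The rest of the pathway was read from lists of 56 and 66 named genes, of which 54 and 64 were in the tables. Of 19 interferon genes, 13 had no count in any library, none averaged 0.5 TPM over the 20 libraries, and the highest value was 1.60 TPM, for Ifng in knockout HFD 18. Ifng, type II interferon, had counts in 18 libraries, Ifnb1 in 1, which was knockout LFD 8 (0.46 TPM), and type I genes of any kind in 5. Receptor chains differed in level: Ifngr1 averaged 132 TPM, Ifnar2 103 TPM and Ifnar1 25.8 TPM. Il10rb averaged 22.8 TPM, Ifngr2 9.14 TPM and Il28ra, near the floor, 0.78 TPM. No pathway gene was called for genotype. With diet over both genotypes 10 of 34 tested pathway genes were called (29.4%), 4 higher and 6 lower on HFD. The 4 higher were the receptor chains Il10rb (0.37 ± 0.07), Ifnar2 (0.27 ± 0.06) and Ifnar1 (0.17 ± 0.07) and the adaptor Ticam1 (0.34 ± 0.12). The 6 lower were Tlr9 (-0.86 ± 0.21), the repressor Irf2 (-0.66 ± 0.15), the receptor chain Il28ra (-0.57 ± 0.23), the kinase Ikbke (-0.47 ± 0.16), the ubiquitin ligase Trim25 (-0.41 ± 0.09) and the nucleotide hydrolase Samhd1 (-0.39 ± 0.10). Il10rb was also called in each genotype, Irf2 in controls, and Trim25 and Ifnar2 in knockouts. All 10 kept their sign under each of the 5 scalings and tests, but not their calls: limma on the TPM scale (pseudocount 1) called 9 pathway genes, 6 higher and 3 lower, 7 of them among the 10. Trim25 (-0.17), Samhd1 (-0.14) and Il28ra (-0.20) were not called there, with limma adjusted p of 0.242, 0.252 and 0.207. With length offsets Ifnar1 was not called (adjusted edgeR p of 0.225). Of all genes, edgeR called 1954 higher and 1977 lower, and limma on the TPM scale 3552 higher and 1184 lower. The largest uncalled genotype differences in this list were Ifng, Socs3 and Ticam1 on HFD (0.49, -0.29 and 0.28), Myd88, Trex1 and Tlr9 on LFD (-0.36, -0.35 and 0.32) and Trex1, Ticam1 and Socs3 over both diets (-0.30, 0.26 and -0.26). For the difference of the genotype effect between diets they were Myd88, Irf8 and Tlr9 (0.46, -0.45 and -0.39).

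Of 62 other interferon-stimulated genes tested, none was called for genotype and 16 were called for diet over both genotypes (25.8%), 4 higher and 12 lower. Higher on HFD were Ifitm2 (0.77 ± 0.13), which blocks viral entry, the histone chaperone Daxx (0.62 ± 0.10), Tdrd7 (0.56 ± 0.10) and Ifi27l2a (0.51 ± 0.19). Lower were the guanylate-binding protein Gbp5 (-0.69 ± 0.12), the nuclear DNA-binding Ifi203 (-0.67 ± 0.15), Oas1g (-0.79 ± 0.30), Ifitm1 (-0.65 ± 0.25), BC006779 (-0.63 ± 0.18), known as Helz2, Epsti1 (-0.57 ± 0.23), Ddx60 (-0.54 ± 0.13), Rnf213 (-0.53 ± 0.12), the nuclear body proteins Pml (-0.51 ± 0.15) and Sp100 (-0.33 ± 0.12), Trim34a (-0.43 ± 0.14) and the class I transactivator Nlrc5 (-0.35 ± 0.13). On the TPM scale with limma (pseudocount 1) 16 genes of this list were also called, but 10 higher and 6 lower, and 9 of them were among the 16 of edgeR. The 4 higher genes were called there and 7 of the 12 lower were not: Oas1g (-0.28), Ifitm1 (-0.52), BC006779 (-0.36), Epsti1 (-0.43), Rnf213 (-0.23), Trim34a (-0.26) and Nlrc5 (-0.11), with limma adjusted p of 0.120 to 0.572 and the same sign as with edgeR. In controls 9 were called by edgeR (5 by limma, all higher), among them Oas1b (-0.84 ± 0.27) and Lgals3bp (0.47 ± 0.11), which were not called over both genotypes, and in knockouts 7 (4 by limma). Daxx, Tdrd7, Gbp5 and Ifitm2 were called in both genotypes by edgeR. The called shares of both lists were near that of all genes (25.2%), and that of the 36 members was 5.56%; the difference between lists was not tested. The median standard error of the members was 0.19 and that of all genes 0.17. The largest uncalled genotype differences were Oas1g, Apol9b and Phf11 on HFD (0.54, -0.49 and 0.45), Uba7, Slfn9 and Epsti1 on LFD (-0.76, 0.72 and 0.63) and Slfn9, Uba7 and Ifi205 over both diets (0.57, -0.44 and -0.44). For the difference between diets they were Oas1g, Epsti1 and Uba7 (0.74, -0.63 and 0.63).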

How the data were processed

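RNA of 20 iWAT samples was sequenced on a NovaSeq as stranded, ribosome-depleted paired reads. Per the submitters' notes and methods, the authors ran Salmon 0.13.1, giving estimated counts, on Ensembl transcripts of NCBIM37 (mm9); these were not normalized between libraries. TPM values of the same run were deposited beside them. A STAR 2.5.3 alignment is also described; whether the deposited values passed through it is not stated.

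The 96533 transcripts were summed by gene with GENCODE vM1 (94334 matched, 97.7%). Rounded sums were tested with edgeR 4.0.16 (TMM, quasi-likelihood) among genes averaging 0.5 TPM or more, with Benjamini-Hochberg adjustment over all of them. Pairwise comparisons used their 2 groups (n = 5 each); the others used all 20 libraries. Alternatives were DESeq2 1.42.0, length offsets, limma 3.58.1 on log2(TPM + 1) or log2(TPM + 0.1), filters of none or 2 TPM, 1 fit of all libraries, and leaving out each library. The edgeR fit was tested on simulated data. The fold interval used the moderated degrees of freedom. Members and lists were chosen with earlier results of these data known. The study gives n = 5 mice for the genotypes on HFD; for LFD the sources used here do not say that each library is a separate mouse, and p-values there measure the spread between libraries. Named members were those called, the 5 with the largest fold change in each pairwise comparison and the 5 with the highest mean TPM. From the other lists, called genes were named, or else the 3 with the largest fold change, and the 10 genes most correlated with the members' mean, of which 1 is not reported here.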

Additional observations from a re-analysis of the deposited data

Results flagged for a closer look

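Of 148 groups of 5 libraries (the 36 genes and their mean in 4 groups), 16 held a library whose gap to the nearest other exceeded 0.71 of the group's range; chance alone marks about 1 in 20 such groups. The genes vary together and these are the values from which knockout LFD 8 and knockout HFD 20 were picked, so the count describes them and is no independent evidence. Knockout LFD 8 was the high library in 9 of the 16. It stood at 10.7 TPM for Stat2 (others 6.28 to 7.20), 73.8 for Ifit3 (16.2 to 28.9), 2.48 for Oas3 (0.295 to 0.906), 8.63 for Mx1 (1.99 to 3.63), 36.6 for Rtp4 (14.5 to 17.6), 3.80 for Isg15 (0.388 to 1.29), 12.3 for Usp18 (4.16 to 5.72) and 30.0 for Irgm2 (16.4 to 18.3). Its mean of log2(TPM + 1) over the members was 4.34 (3.46 to 3.68). Knockout HFD 20 was the high library in 3, at 44.3 TPM for Ifit1 (10.7 to 18.5), 83.1 for Ifit3 (31.0 to 45.4) and 1.92 for Oasl1 (0.91 to 1.17).

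The other 4 were single genes in other libraries. Ddx58 was high in control LFD 2 at 36.4 TPM (26.7 to 29.4) and Eif2ak2 in knockout LFD 9 at 46.2 TPM (25.9 to 31.8). Mx2 was low in control HFD 12 at 0.59 TPM (0.935 to 1.05) and Tap1 in knockout HFD 19 at 5.19 TPM (9.21 to 10.4). In estimated counts the lowest library of that group for Tap1 was knockout HFD 18.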

How the results depend on the processing

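The absence of called members for genotype held under every alternative run, leaving out single libraries included, and so did the calls of Oas2 and Gbp2 for diet over both genotypes. Counts of members called for diet moved more. In controls (1 called) the count was 2 with DESeq2 and 0 with all 20 libraries in 1 fit, and 0 to 3 when 1 library was left out: 3 without control LFD 1 (Gbp2, Oas3 and Oas2) and 0 without control LFD 2, 3 or 5 or control HFD 11, 13 or 15. In knockouts (1 called) it was 0 to 1, being 0 without knockout LFD 6 or 8 or knockout HFD 17, 18 or 19. Over both genotypes (2 called) it was 5 on the TPM scale with limma at either pseudocount, and 2 to 5 without 1 library: 4 without control LFD 1 or knockout LFD 7, and 5 without knockout HFD 20. Of all genes, DESeq2 called 2205 of 15311 in controls, and limma (pseudocount 1) called 4736 of 15574 over both genotypes. The cause of the moves in the members' counts was not tested.

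Each median of the members moved by less than 0.27 in every alternative, the pooled SD within groups of the members' mean log2 level. That SD describes single libraries and not a fold change between groups, and some moves were larger than the median itself. Leaving out knockout LFD 8 moved the median for genotype on LFD from -0.04 to -0.19 and for diet in knockouts from -0.10 to 0.02; leaving out knockout HFD 20 moved the median for genotype on HFD from 0.03 to -0.11 and for diet in knockouts to -0.28. For single genes, Oas3 for genotype on HFD turned from 0.33 to -0.0017 with length offsets, -0.0196 with limma at a pseudocount of 1 and -0.096 at 0.1, and Mx1 on HFD ranged from -0.0047 to 0.53 when 1 library was left out. No paired analysis was made: controls were littermates, but which mice shared a litter is not given in the sources used here. The lowest estimated count of a member in any library was 19, for Mx2.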
